A study of Mus musculus with 11 samples.

Results

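WD repeat proteins fold into a ring-shaped propeller of repeated blades that holds other proteins together, and the mouse gene names beginning with Wdr were given for this fold and not for a shared function. Members of the set act in ribosome assembly, histone methylation, autophagy, ubiquitin ligation, the centrosome and the cilium or sperm flagellum. RFX2 is a transcription factor that binds a DNA element called the X-box and is needed for the development of spermatids, the haploid germ cells that build the flagellum. The Wdr genes were taken by name, as every counted gene whose GENCODE vM21 symbol is Wdr followed by a digit, leaving out 6 genes of intraflagellar transport and dynein (Wdr19, Wdr34, Wdr35, Wdr60, Wdr63 and Wdr78). The annotation held 65 such symbols, 63 of them were in the table of 23074 genes, and 57 remained.

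Whole decapsulated testes were taken at postnatal day 21 from 5 wild type mice (WT1 to WT5) and 6 Rfx2-/- mice (KO6 to KO11), all of a mixed C57BL/6, 129/Sv and FVB/N background. The Rfx2-/- allele lacks 1 exon that codes for most of the DNA binding domain, in every cell of the mouse, so the comparison asks which Wdr transcripts depend on an intact Rfx2 gene when the first germ cells have just passed meiosis. In bulk tissue, fewer cells of a type and less RNA per cell cannot be told apart.

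Total counts were 26925157 to 29769483 in WT and 22232097 to 27116903 in KO (two-sided exact permutation p = 0.013). Rfx2 itself was counted over all its exons, so its level, 326 ± 118 CPM (counts per 1000000 of the scaled library) in WT (SD, n = 5) and 304 ± 14.6 in KO (SD, n = 6), does not check the loss of 1 exon. WT3 and WT5 stood apart from the other wild type mice: the summed level of 10 pachytene spermatocyte markers was 2529 and 2356 CPM in them, 5035 to 6033 CPM in the other WT mice and 5322 to 7140 CPM in KO. The summed level of 12 round spermatid markers was 62.7 CPM in WT3 and 44.4 CPM in WT5. It was 129 to 635 CPM in the other WT mice and 163 to 944 CPM in KO, with WT1 and KO7 the highest of their genotypes. Markers of spermatogonia, Sertoli and peritubular cells ran the other way and were highest in WT3 and WT5. Over 11 lists of cell type markers the only gene called was 1 of 6 Leydig cell markers, lower in KO. The lists still differed in their median log2 fold change (KO minus WT): 0.95 for round spermatid, 0.61 for pachytene and 0.22 for erythroid markers. Medians were -0.02 for early spermatocyte, -0.10 for peritubular, -0.27 for elongating spermatid, -0.33 for Sertoli and -0.38 for spermatogonial markers. They were -0.43 for endothelial, -0.46 for macrophage and -0.54 for Leydig markers.

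A gene was called when edgeR's quasi-likelihood test gave an adjusted p (Benjamini-Hochberg) no higher than 0.01 over the 15745 genes tested. Of the 57 Wdr genes, 56 had enough counts to be tested. Wdr72, known for its role in enamel formation, was left out with 0 to 8 counts in each mouse. Wdr38 and Wdr47 fell and Wdr66 rose in KO, and the other 53 tested members passed no call. Over all tested genes 2.67% were called, 1.94% lower and 0.73% higher, against 3 of 56 Wdr genes. Fold changes over 2 were called for Wdr38 and Wdr66, against 1.25% of all tested genes. The median log2 fold change of the members was 0.02 and that of all tested genes was -0.05. For 47 of the 56 the log2 fold change lay within 0.5 of zero, as it did for 77.5% of all tested genes.

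**Figure D1:**
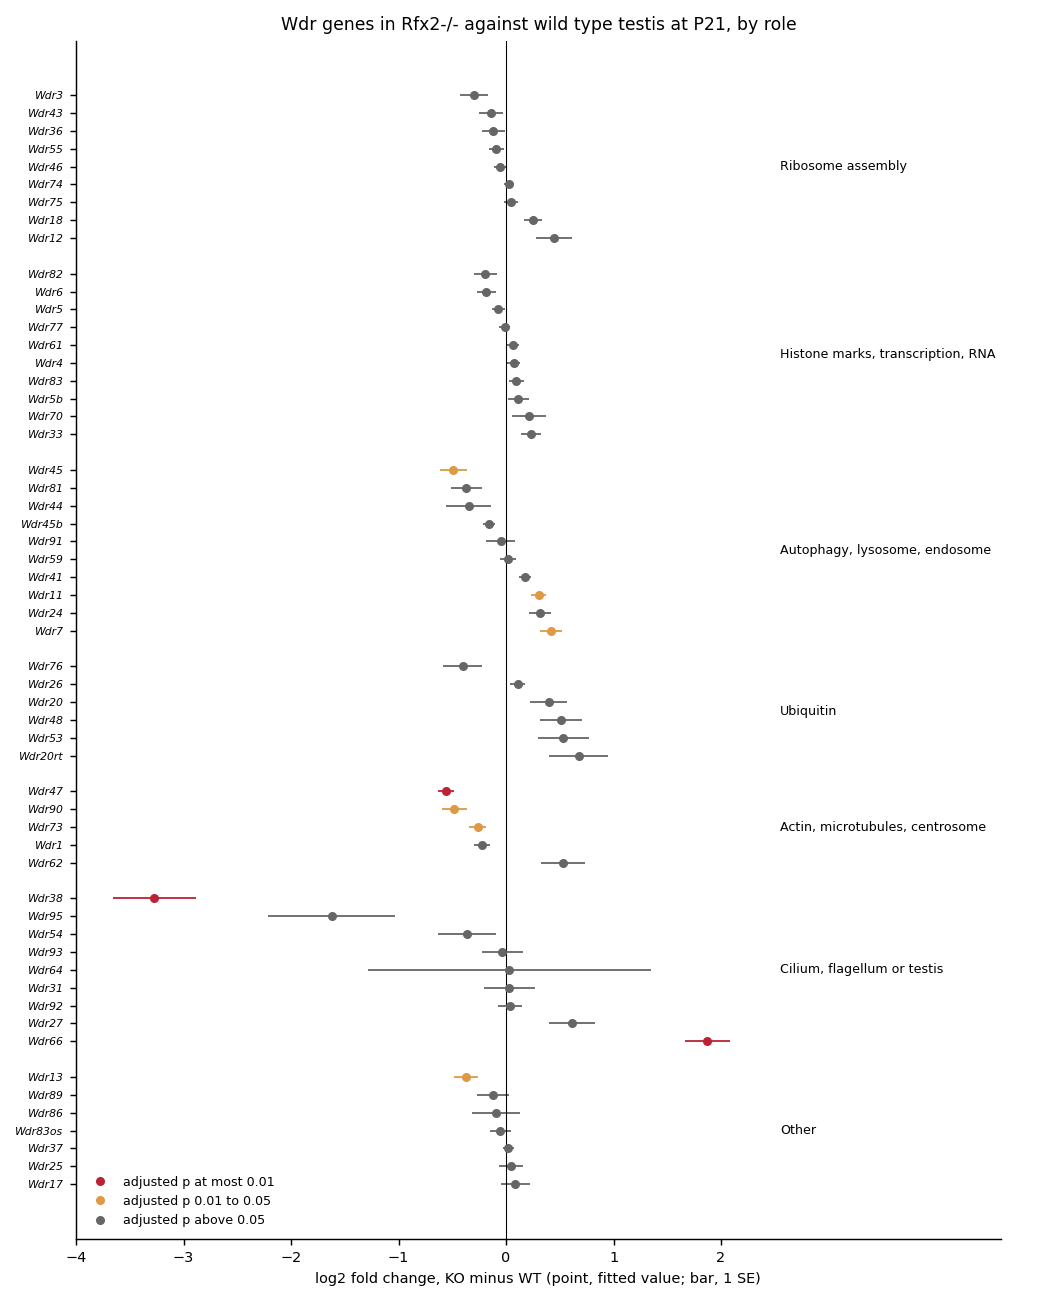
The log2 fold change (KO minus WT) of the 56 tested Wdr genes is plotted by role on the horizontal axis, with points for the fitted value, bars for 1 SE and colours for the adjusted p of edgeR's test. Wdr38 at -3.27 and Wdr66 at 1.87 lie far from the other called gene, Wdr47 at -0.56, and most members cluster near zero.

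The promoters of the 3 called genes are shown because RFX factors act through the X-box. Each line gives the 250 bases before a RefSeq transcription start on GRCm38.p6, on the plus strand, with a loose X-box in capitals where it occurs. The loose X-box was GT, any 2 letters, CC, any 3 letters, G, any 2 letters and AC, on either strand. The windows lie at chr2:38998059-38998308 (Wdr38), chr3:108591483-108591732 (the downstream of 2 starts of Wdr47) and chr5:123253538-123253787 (Wdr66).
Wdr38: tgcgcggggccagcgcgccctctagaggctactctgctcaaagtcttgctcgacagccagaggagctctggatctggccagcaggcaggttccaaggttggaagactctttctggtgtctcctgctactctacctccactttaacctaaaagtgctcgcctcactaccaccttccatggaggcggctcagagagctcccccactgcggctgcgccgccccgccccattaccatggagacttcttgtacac
Wdr47: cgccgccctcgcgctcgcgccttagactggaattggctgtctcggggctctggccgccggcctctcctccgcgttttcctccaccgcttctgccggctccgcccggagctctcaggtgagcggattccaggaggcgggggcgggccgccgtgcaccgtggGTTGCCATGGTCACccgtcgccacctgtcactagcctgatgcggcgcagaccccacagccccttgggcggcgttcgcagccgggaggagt
Wdr66: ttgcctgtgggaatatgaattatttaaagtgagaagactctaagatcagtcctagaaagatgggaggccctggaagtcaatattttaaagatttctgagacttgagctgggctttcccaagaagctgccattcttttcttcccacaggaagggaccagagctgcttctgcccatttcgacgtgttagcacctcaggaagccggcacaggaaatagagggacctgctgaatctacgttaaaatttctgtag

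The Wdr47 window held GTTGCCATGGTCAC at chr3:108591643-108591656, with its first base 90 bases before the start. The upstream Wdr47 start held no match. The Wdr38 and Wdr66 windows held none, which says only that these letters are not in them. GENCODE places the first base of Wdr66 further upstream, at chr5:123252102, and that of Wdr38 at chr2:38997476, and neither region was searched here. RefSeq promoters, 300 bases long with 50 after the start, were matched for 45 of the 57 members (56 starts). The loose X-box was in 5 of the members' 56 promoters (8.93%) and in 4.62% of all 32841 promoters. Counted by gene it was in 4 of the 45 matched members, since both starts of Wdr93 lie so close that their windows hold the same match. So small a count leaves the member share uncertain. The members that held it were Wdr27, Wdr47, Wdr54 and Wdr93. The shorter GTTGCC, searched on both strands and contained in some of the longer matches, was in 12.5% of the members' promoters and 12.5% of all. Wdr93 again counted with both of its starts. The median GC content was 59.7% in the members' promoters and 52.7% in all, and its part in these shares was not tested.

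Wdr38, a little-studied member (ENSMUSG00000035295, chr2:38997476-39006168, plus strand), had the largest fold change of the set. Its level was 14.3, 8.44, 3.75, 7.99 and 3.52 CPM in WT1 to WT5, from 112 to 406 counts. In KO6 to KO11 it was 0.998, 1.16, 0.601, 0.667, 0.609 and 0.653 CPM, from 13 to 28 counts. The genotypes did not overlap, and the lowest WT mouse was 3.05 times the highest KO mouse. The means were 7.60 ± 4.40 CPM (SD, n = 5) and 0.781 ± 0.236 CPM (SD, n = 6), a fitted 9.66-fold fall (log2 fold change -3.27, SE 0.38, adjusted p = 0.000511 by edgeR). WT3 and WT5, low in spermatid markers, were also the lowest WT mice for Wdr38. Among the KO mice, KO7 and KO6 were the highest both in round spermatid markers and in Wdr38. KO9, the lowest in those markers (163 CPM), had 15 counts of Wdr38. KO10 and KO11, with marker sums of 401 and 261 CPM, had 14 and 15 counts. At such counts these mice cannot be ranked for Wdr38. Without WT3 and WT5 the log2 fold change was -3.70 (adjusted p = 2.77e-05).

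Wdr66 (ENSMUSG00000029442, chr5:123252102-123327484, plus strand) encodes the axonemal protein also called Cfap251, which sits at the base of a radial spoke of the cilium and sperm flagellum. It was 168, 137, 93.0, 148 and 67.1 CPM in WT1 to WT5. In KO6 to KO11 it was 465, 449, 459, 411, 475 and 430.1 CPM. Every KO mouse was at least 2.44 times the highest WT mouse. The fitted rise was 3.66-fold between means of 123 ± 41.5 CPM (SD, n = 5) and 448 ± 24.0 CPM (SD, n = 6), with a log2 fold change of 1.87, SE 0.21 and adjusted p = 0.000377 by edgeR. The spread within KO was narrow, with the highest mouse 1.16 times the lowest, against 2.51 times in WT. Without WT3 and WT5 the log2 fold change was 1.58 (adjusted p = 1.94e-06).

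Wdr47 (ENSMUSG00000040389, chr3:108591279-108645719, plus strand) encodes a microtubule-associated protein best known from neurons. It was 65.5, 78.4, 82.3, 81.6 and 85.3 CPM in WT1 to WT5, and 51.7, 51.2, 58.0, 56.7, 49.9 and 52.7 CPM in KO6 to KO11. The lowest WT mouse, WT1, was 1.13 times the highest KO mouse, so the genotypes came close without overlap. The fall was 1.47-fold (log2 fold change -0.56, SE 0.07, adjusted p = 0.00102 by edgeR), with means of 78.6 ± 7.75 CPM in WT (SD, n = 5) and 53.4 ± 3.23 CPM in KO (SD, n = 6). WT3 and WT5, the lowest WT mice for Wdr38 and Wdr66, were the highest for Wdr47, by a small margin over WT4. Without WT3 and WT5 the log2 fold change was -0.48 (adjusted p = 0.0059).

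**Figure D2:**
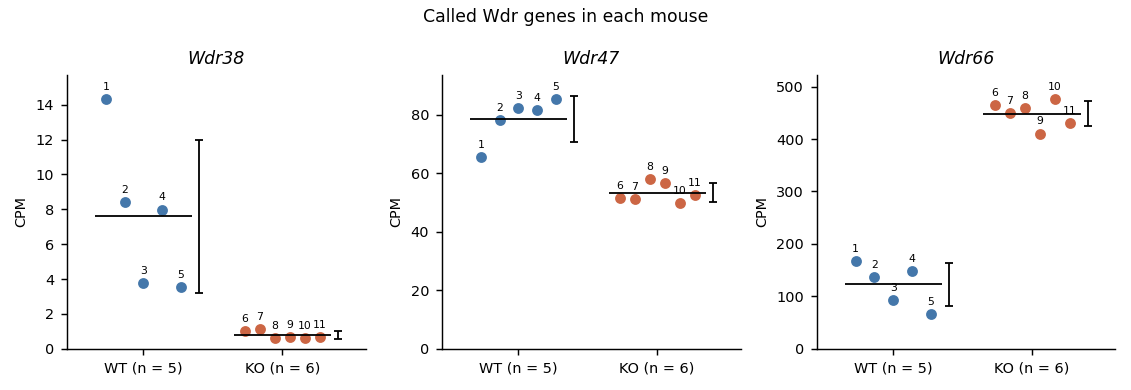
CPM of the 3 called Wdr genes in each mouse (points, labelled by mouse number) with the genotype mean (line) and SD (bar beside the points). For Wdr38 and Wdr47 every KO mouse lies below every WT mouse, and for Wdr66 the KO mice at 411 to 475 CPM lie above the WT mice at 67.1 to 168 CPM.

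The genotypes also did not overlap for 3 members without a call, Wdr7, Wdr11 and Wdr18, all higher in KO. In all, 2 members had every KO mouse below every WT mouse, as did 5.2% of all tested genes, and 4 had every KO mouse above, as did 6.5%. Wdr11, a protein that helps vesicles dock at the Golgi, was 113 to 147 CPM in WT and 156 to 165 CPM in KO (log2 fold change 0.30, SE 0.07, edgeR adjusted p = 0.023). Wdr7, a partner of the proton pump of endosomes and synaptic vesicles, was 82.4 to 125 CPM in WT and 133 to 149.7 CPM in KO (0.42, SE 0.10, edgeR adjusted p = 0.0268, and 0.27 without WT3 and WT5). Wdr18, a subunit of the complex that matures the large ribosomal subunit, was 77.8 to 103 CPM in WT and 104 to 118 CPM in KO, with the nearest mice of the 2 genotypes almost level. In these 3 genes WT3 and WT5 were the lowest mice, as they were for the pachytene markers, and the part of this in the difference was not tested.

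At a looser adjusted p of at most 0.05, 9 members passed, 6 lower and 3 higher, against 14.9% of all tested genes (8.78% lower and 6.15% higher). The 6 that this added were Wdr7 and Wdr11, above, and Wdr45, Wdr90, Wdr13 and Wdr73, which were lower in KO. Wdr45, which binds a phosphoinositide on forming autophagosomes, was 10.7 to 14.03 CPM in WT and 7.52 to 10.7 CPM in KO. The centriolar gene Wdr90 was 52.0 ± 10.7 CPM in WT (SD, n = 5) and 37.2 ± 1.73 CPM in KO (SD, n = 6). The genotypes overlapped in both genes, and without WT3 and WT5 the log2 fold change of Wdr90 moved from -0.48 to -0.27 and that of Wdr13 from -0.37 to -0.17. The count of 9 moved with single mice, as did the share of all tested genes. It was 27 without WT1 (40.0% of all tested genes) and 3 to 5 without any 1 of WT3, WT5, KO6, KO7, KO8, KO10 and KO11 (4.57% to 6.93%).

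By role, the calls lay in the cytoskeletal and the ciliary or testis lists. Over all tested genes edgeR called 2.67%, DESeq2 13.1% and voom 6.66%, so few or no calls are likely in lists this small. Of the 9 members that act in ribosome assembly in the nucleolus, none was called by edgeR, DESeq2's Wald test or limma's voom, and 3 had an unadjusted edgeR p under 0.05, as 6576 of the 15745 tested genes had. Their log2 fold changes ran from -0.30 (Wdr3, of the small subunit processome) to 0.44 (Wdr12, of the PeBoW complex), with a median of -0.06. Wdr74, the member of this list with the highest level, showed the tightest values, 37.0 to 39.5 CPM in WT and 38.0 to 41.1 CPM in KO. Its log2 fold change was 0.03 with an SE of 0.05.

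None of the 10 nuclear members was called by edgeR, DESeq2 or voom, beside 2.67%, 13.1% and 6.66% of all tested genes. An unadjusted edgeR p under 0.05 was found for 1 of them and for 6576 of the 15745 tested genes. Wdr5, the scaffold of the MLL and SET1 complexes that methylate histone H3, was 157 to 194 CPM in WT and 157 to 180.4 CPM in KO, so that the KO values overlapped the WT values. The median of the list was 0.07 and its extremes were -0.19 (Wdr82, which joins SET1 complexes) and 0.23 (Wdr33, of the cleavage and polyadenylation factor). Wdr77, the partner of the arginine methyltransferase Prmt5, was among the members nearest to zero, with 91.9 ± 6.48 CPM (SD, n = 5) in WT and 91.0 ± 3.09 CPM (SD, n = 6) in KO. The 2 other members nearest to zero, Wdr59 and Wdr37, had log2 fold changes of 0.02 each, with SE 0.08 and 0.05, and both turned negative with total counts as library sizes. Wdr59 belongs to the GATOR2 complex that signals amino acid supply to mTORC1.

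Of the 10 tested members of autophagy, lysosome and endosome, none was called by edgeR, 4 were called by DESeq2 and 2 by voom. An unadjusted edgeR p under 0.05 was found for 7 of them. Over all tested genes DESeq2 called 13.1% and voom 6.66%, and 6576 of 15745 had such an unadjusted p. The median log2 fold change of the list was -0.02, with 5 values below and 5 above zero. They spread from -0.49 (Wdr45) to 0.42 (Wdr7). The 2 phosphoinositide-binding autophagy genes, Wdr45 and Wdr45b, both had lower means in KO, with Wdr45b at 69.4 ± 4.84 CPM in WT (SD, n = 5) and 62.1 ± 3.19 CPM in KO (SD, n = 6), a log2 fold change of -0.16 that did not pass (edgeR adjusted p = 0.0721).

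The 6 ubiquitin members had the highest median of the role lists, 0.45, and no call by edgeR, DESeq2 or voom. An unadjusted edgeR p under 0.05 was found for 5 of them and for 6576 of the 15745 tested genes. The lowest edgeR adjusted p of the list was 0.0824. The list includes Wdr48, the activator of the deubiquitinases Usp1, Usp12 and Usp46. It also holds Wdr20, which joins some of these enzymes, its retrogene Wdr20rt, and Wdr53 and Wdr76, receptors of Cul4 ligases. Wdr48 was 559.8, 503, 294, 542 and 269 CPM in WT1 to WT5 and 557 to 671 CPM in KO. WT3 and WT5 were set far below all other mice, while WT1 stood above the lowest KO mouse. The log2 fold change of 0.51 had an SE of 0.20 (edgeR adjusted p = 0.0824) and was 0.21 without WT3 and WT5. Wdr20rt, at 0.68, and Wdr53, at 0.53, also had WT3 and WT5 below all other mice, with 32.9 and 41.2 CPM of Wdr20rt in WT5 and WT3, 89.9 to 101 CPM in the other WT mice and 98.6 to 130.1 CPM in KO. Without WT3 and WT5 the log2 fold change was 0.28 for Wdr20rt and 0.19 for Wdr53.

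Among 5 cytoskeletal members, Wdr47 fell and 4 were not called. Wdr62, a spindle pole protein, had the highest mean level per exon length as counted, within the spread of Wdr48. It was 645, 479, 333, 539 and 262 CPM in WT1 to WT5 and 571 to 727 CPM in KO (log2 fold change 0.52, SE 0.20, edgeR adjusted p = 0.0847). Without WT3 and WT5 its log2 fold change was 0.24. The other 4 of this list had negative log2 fold changes, from -0.22 (the actin disassembly factor Wdr1) to -0.56 (Wdr47).

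The 9 members known from the cilium or flagellum, or mainly described in testis, held the lowest and the highest fold change of the set and still had a median of 0.03. Wdr38 fell, Wdr66 rose and 7 were not called. Wdr92, which takes part in the cytoplasmic assembly of axonemal dynein, was 34.2 to 51.8 CPM in WT and 45.0 to 48.0 CPM in KO. Wdr93 and Wdr31 had log2 fold changes of -0.03 (SE 0.19) and 0.03 (SE 0.24). That of Wdr93 was -0.33 without WT3 and WT5, again not called. Wdr27 was 10.3 to 27.5 CPM in WT and 25.8 to 34.3 CPM in KO and did not pass (0.61, SE 0.21, edgeR adjusted p = 0.0649, and 0.33 without WT3 and WT5).

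Wdr95 had few counts, 80, 32, 16, 21 and 6 in WT1 to WT5 and 5 to 14 in KO. Its log2 fold change of -1.62 had an SE of 0.59 (edgeR adjusted p = 0.0737). It was -0.85 without WT1 (edgeR adjusted p = 0.147), and it became a call (adjusted p = 0.00326) only among the alternatives when the score of round spermatid markers entered the fit as a covariate. Wdr64 showed the widest spread of the set. It had 244 counts in WT1 and 242 in KO7, the 2 mice highest in round spermatid markers, and 1 to 30 counts in each other mouse. With 2.04 ± 3.68 CPM (SD, n = 5) and 2.07 ± 3.90 CPM (SD, n = 6), no difference between genotypes was detectable.

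The 7 members placed in no role list were Wdr13, Wdr17, Wdr25, Wdr37, Wdr83os, Wdr86 and Wdr89, with a median of -0.06. They had no call by edgeR, DESeq2 or voom, beside 2.67%, 13.1% and 6.66% of all tested genes. An unadjusted edgeR p under 0.05 was found for 1 of them and for 6576 of the 15745 tested genes. Wdr83os, which carries the prefix because it lies opposite Wdr83, is not a WD repeat protein. None of the 6 members on chromosome 17, which also carries Rfx2, was called, and the nearest of them, Wdr43, lies 14.8 Mb from Rfx2.

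Levels between genes are compared per exon length, as CPM divided by the kilobases of merged exons (RPKM). The order in WT was led by Wdr62 (95.2 ± 32.6 RPKM, SD, n = 5), Wdr48 (84.0 ± 27.2) and Wdr5 (61.4 ± 5.12). The first 2 did not differ beyond their spread. Next came Wdr82 at 42.1 ± 6.96 RPKM and Wdr93 at 39.3 ± 13.0 RPKM, again within each other's SD. The leaders of the other lists were Wdr74 (31.5 ± 0.941 RPKM) and Wdr45b (29.5 ± 2.05 RPKM). The median of the 56 tested members was 15.9 RPKM, above the 7.44 RPKM of all tested genes, and the lowest were Wdr86, Wdr64 and Wdr95 at 0.594, 0.531 and 0.386 RPKM. In KO, Wdr66 rose from 16.8 ± 5.67 to 61.3 ± 3.29 RPKM, a level close to that of Wdr5 (58.4 ± 2.77 RPKM in KO). For 15 members some exon bases also belong to another counted gene, and reads there were not counted, so that the level of Wdr48 (1331 shared of 5160 bases), Wdr54 (1778 of 4634) and Wdr61 (1581 of 3686) is understated. Wdr62 shares fewer bases (264 of 4742), so the order of Wdr62 and Wdr48 is not settled.

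**Figure D3:**
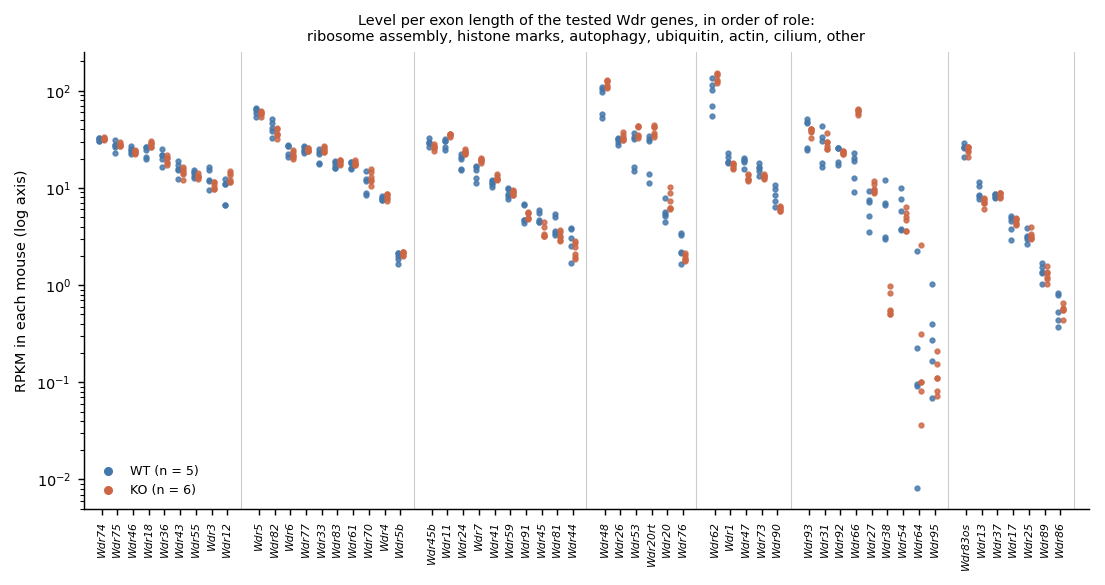
RPKM of the 56 tested Wdr genes in each mouse on a log axis (blue, WT; orange, KO), in order of role and, within a role, of the WT mean. Wdr62 and Wdr48 reach the highest levels, Wdr38 and Wdr66 are the pairs of columns set furthest apart, and the points of Wdr64 span the widest range.

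The Wdr genes varied more among the WT mice than among the KO mice. The median coefficient of variation was 16.8% in WT and 7.68% in KO, and 50 of 56 members had the larger value in WT. This was shared by 81.8% of all tested genes. A ratio of highest to lowest mouse above 2 was found for 15 members in WT (30.9% of all tested genes) and 2 in KO (17.1%). WT3 and WT5 were the lowest 2 WT mice for 28 of 56 members, against 36.1% of all tested genes, and the highest 2 for 20, against 31.1%.

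By role, with no test of a difference between lists, WT3 and WT5 were the lowest 2 for 8 of the 9 ciliary or testis members, all but Wdr64, and for 5 of the 6 ubiquitin members, all but Wdr76. They were the highest 2 for 6 of the 10 tested endosomal and autophagy members, among them Wdr45, Wdr45b, Wdr81 and Wdr91, and the lowest 2 for the other 4, Wdr7, Wdr11, Wdr24 and Wdr41. In the cytoskeletal list they were the highest 2 for Wdr1, Wdr47 and Wdr90 and the lowest 2 for Wdr62 and Wdr73. The ribosomal list had 3 members with these mice lowest and 4 with them highest, and the nuclear list 4 and 3. Pachytene and round spermatid markers were lowest in these 2 mice and Sertoli, spermatogonial and peritubular markers highest, as given above. The part of cell makeup in the spread was not tested. This description was chosen after the values were seen.

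**Figure D4:**
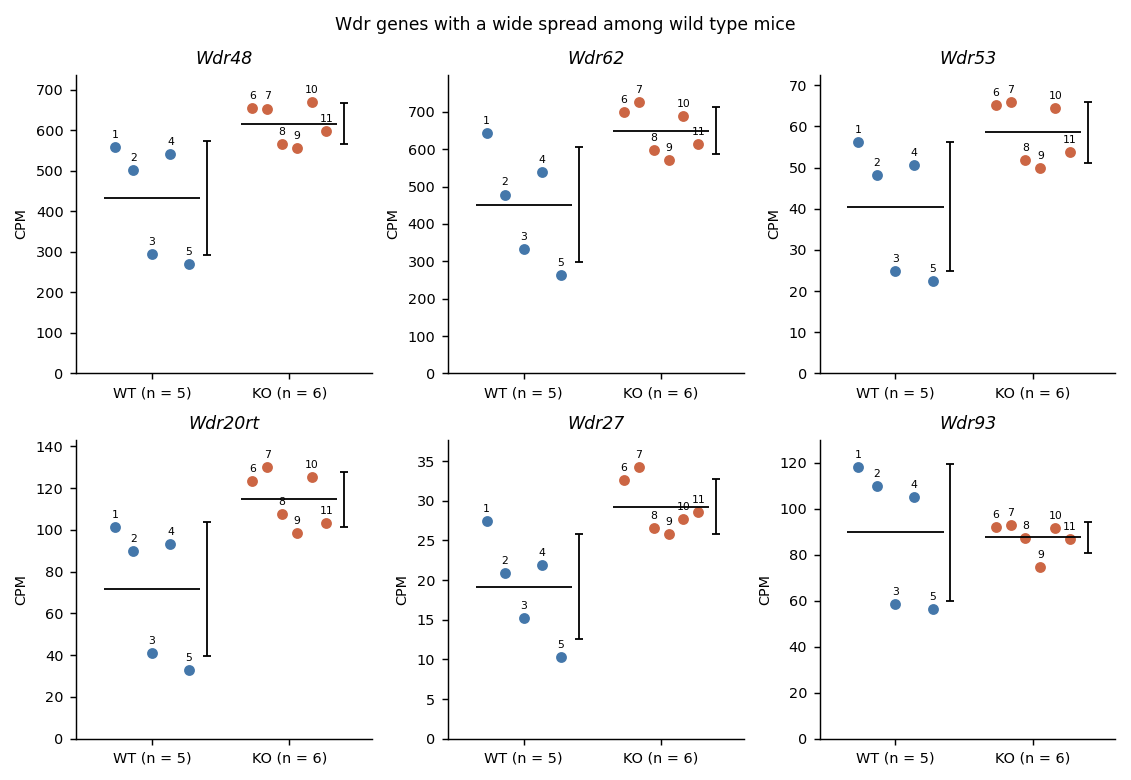
CPM of 6 Wdr genes in each mouse (points, labelled by mouse number) with the genotype mean (line) and SD (bar beside the points). WT3 and WT5 lie below the other WT mice in each panel, and WT1 lies within the KO range for the first 5 genes.

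For Wdr93, by contrast with the other genes of that plot, the KO mice (74.8 to 93.2 CPM) lay below WT1, WT2 and WT4 (105 to 118 CPM) and above WT3 and WT5 (58.8 and 56.6 CPM). The genotype means over all mice, 89.8 ± 29.7 CPM in WT (SD, n = 5) and 87.6 ± 6.79 CPM in KO (SD, n = 6), were nearly the same. The log2 fold change of Wdr93 moved from -0.03 to -0.33 when WT3 and WT5 were left out (edgeR adjusted p = 0.0163). It was still not called. The near equality of the means therefore rests on WT3 and WT5.

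The nearest relatives by name or fold were compared in the same fit. Over all tested genes edgeR called 2.67%, DESeq2 13.1% and voom 6.66%, and 6576 of 15745 had an unadjusted edgeR p under 0.05. None of the 6 Wdr genes left out by name was called by edgeR, 1 was by DESeq2 and 1 by voom, and 2 had an unadjusted p under 0.05. Their median log2 fold change was 0.17, and they ran from -0.45 for Wdr78 to 1.12 for Wdr63, both of axonemal dynein. Wdr63 was 58.4 to 163 CPM in WT and 218 to 267 CPM in KO, without overlap, and did not pass (SE 0.24, edgeR adjusted p = 0.017). Of 6 axonemal genes that once had a Wdr symbol, none was called by edgeR, 2 were by DESeq2 and 3 by voom, and 3 had an unadjusted p under 0.05. Cfap44 was at 1.36 (SE 0.31, edgeR adjusted p = 0.0227) and Daw1, an assembly factor for outer dynein arms, was at -1.10 (SE 0.25, edgeR adjusted p = 0.0217). Both had genotypes that did not overlap, in opposite directions, as was seen for Wdr66 and Wdr38.

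The known partners of Wdr proteins were counted in the same way. Of 76 partner genes in 8 lists, 2 fell and 1 rose, beside 1.94% of all tested genes called lower and 0.73% called higher. The median log2 fold change of the partner genes was 0.06. Zmynd10, which helps to assemble axonemal dynein in the cytoplasm, as Wdr92 does, was 201 to 479 CPM in WT and 111 to 136 CPM in KO (log2 fold change -1.45, SE 0.22, edgeR adjusted p = 0.00263). Kmt2d, a histone H3 methyltransferase whose complex holds Wdr5, was 178 to 306 CPM in WT and 112 to 133 CPM in KO (-0.97, SE 0.14, edgeR adjusted p = 0.00177). Tex10, a partner of Wdr18, was 116 to 133 CPM in WT and 145 to 172 CPM in KO (0.33, SE 0.06, edgeR adjusted p = 0.00824). The call of Tex10 was lost in 10 of the 11 fits that left out 1 mouse (edgeR adjusted p up to 0.0224, and 0.00838 in the other, without WT4), while Kmt2d and Zmynd10 passed in each. The other 73, among them the partners listed for Wdr24, Wdr41, Wdr48, Wdr26 and Wdr61, were not called. DESeq2 called 15 of the 76, against 13.1% of all tested genes, and voom 6, against 6.66%. The Wdr gene listed with each of these 3 partners was itself not called: Wdr92 was at 0.04, Wdr5 at -0.07 and Wdr18 at 0.25.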

How the data were processed

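RNA-Seq counts of mouse testis at postnatal day 21 were analysed for 5 WT and 6 Rfx2-/- mice. The authors deposited raw counts per gene, without normalization. Per the study's methods, TruSeq libraries were sequenced as single reads and mapped to GRCm38. Reads mapping to several places or to exons of several genes were dropped, and the rest were counted on the merged exons of protein coding isoforms. The submitters' processing notes name CASAVA 1.8.2, STAR 2.4 and featureCounts 1.4.6. Multi-mapping reads being dropped can lower the counts of genes with near-identical copies, among them retrogenes.

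Counts were tested in R 4.3.3 with edgeR 4.0.16 (filterByExpr, TMM, glmQLFit and glmQLFTest, no covariate), with Benjamini-Hochberg adjustment over the 15745 genes tested and a call at an adjusted p of at most 0.01. Each script that tested all genes was checked on simulated counts. CPM used TMM library sizes, and RPKM used merged exon lengths from GENCODE M21. Total counts were 22232097 to 29769483, and the floor of 3 counts corresponds to 0.0852 to 0.139 CPM and covers counting error only. No 2 mice agreed within sampling noise. Mice are taken as separate animals, as the labels number them.

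Alternatives were DESeq2's size factors or total counts as scaling, voom with quality weights (limma 3.58.1), DESeq2's Wald test (1.42.0), filters at 1 count or at a mean of 50 counts, a limit of 0.05 for the adjusted p, a round spermatid marker score as covariate and each mouse left out. Leaving out WT3 and WT5 together was added after seeing the data. Members, lists and markers were chosen with earlier results of these data known. Named genes were all called members, the 5 uncalled members with the largest fold change, the member with the highest WT level in each role list, the 3 nearest to zero and the untested one; other genes were named after their values were seen. Promoters came from RefSeq (GRCm38.p6). Protein sequences were not used here, so the planned count of repeats in them was not run. Figures were drawn with matplotlib 3.10.9.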

Additional observations from a re-analysis of the deposited data

Results flagged for a closer look

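Of 52 combinations of a named gene and a genotype, 4 held a mouse far from the others of its genotype, by the gap to its nearest neighbour as a share of the whole range (Dixon's 95% limit). Chance alone flags about 1 in 20 groups picked without regard to their values. Some of these genes were named after their values were seen, Wdr64 for its wide spread in WT. The 4 flags therefore cannot be set against that rate. Wdr64 was 8.60 CPM in WT1, against 0.0314 to 0.875 CPM in the other WT mice, and 9.99 CPM in KO7, against 0.139 to 1.20 CPM in the other KO mice. WT1 and KO7 were also the mice with the highest round spermatid marker sums, 635 and 944 CPM. Wdr93 was 74.8 CPM in KO9, against 86.9 to 93.2 CPM in the other KO mice. Wdr11 was 156 CPM in KO9, against 163 to 165 CPM in the other KO mice. KO9 had the lowest sum of pachytene markers in KO, 5322 CPM.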

How the results depend on the processing

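Wdr38, Wdr47 and Wdr66 were called in the same direction under every alternative, including each mouse left out. The counts of other calls moved. Genes lower in KO were 4 by DESeq2's Wald test (with Wdr45 and Wdr90), 4 with the round spermatid score as covariate (with Wdr54 and Wdr95) and 6 when the adjusted p could reach 0.05 (the 0.05 limit), and 2 to 3 with 1 mouse left out. Genes higher in KO were 4 by the Wald test (with Wdr7, Wdr11 and Wdr41), 3 by voom, 2 without WT3 and WT5, 3 at the 0.05 limit and 1 with any mouse left out. The Wald test called 5.79% of all genes lower and 7.28% higher. These shares were 1.94% and 0.73% in the main fit, 4.36% and 1.84% with the covariate and 4.33% and 2.33% by voom. They were 2.72% and 1.06% without WT3 and WT5, 2.74% and 0.616% with total counts and 8.78% and 6.15% at the 0.05 limit. Calls in the endosomal and autophagy list were 4 by the Wald test, 2 by voom, 1 without WT3 and WT5 and 3 at the 0.05 limit. Calls in the cytoskeletal list were 2 with total counts, the Wald test, voom or without WT3 and WT5, 3 at the 0.05 limit and 1 to 2 with 1 mouse left out (2 without WT4). The ciliary list had 4 with the covariate, and the unlisted members had 1 at the 0.05 limit. Partner calls were 15 by the Wald test (13.1% of all genes called), 6 by voom (6.66%), with the covariate (6.19%) or without WT3 and WT5 (3.78%), and 12 at the 0.05 limit (14.9%). They were 2, without Tex10, in 10 of 11 fits with 1 mouse left out and with genes of at least 1 count kept (edgeR adjusted p of Tex10 0.0114), 3 without WT4, and 3 with total counts, where Dnaaf5 took the place of Tex10. The Wdr genes left out by name had 1 call with total counts, the Wald test, voom, the covariate or the 0.05 limit, 2 without WT3 and WT5 and 0 to 1 with 1 mouse left out. The renamed genes had 1 with total counts, 2 by the Wald test, 3 by voom, 3 with the covariate, 2 without WT3 and WT5, 2 at the 0.05 limit and 0 to 1 with 1 mouse left out. Members whose genotypes did not overlap numbered 6 to 16 with 1 mouse left out, 16 without WT1 (23.3% of all tested genes) and 11 without KO9 (16.0%). The cause of these moves was not tested.

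Total counts as library sizes shifted the all-gene median (log2) from -0.05 to -0.22. Under them Wdr74 was -0.14, Wdr59 -0.16, Wdr37 -0.15 and Wdr64 -0.084. Wdr77 was 0.0126 with DESeq2's size factors, 0.0121 by the Wald test, 0.0245 by voom, 0.0381 with the covariate and 0.0683 without WT3 and WT5. Wdr64 was -0.38 by voom, -1.26 with the covariate and -0.655 without WT3 and WT5. With 1 mouse left out, Wdr93 lay between -0.149 and 0.0844, Wdr77 between -0.0433 and 0.0311, Wdr59 between -0.0334 and 0.0769 and Wdr64 between -2.04 and 2.35. None of these was called. The difference in mean total count stayed between -4867104 and -3890143 with 1 mouse left out. Depth limits Wdr38 in KO, Wdr64, Wdr72, Wdr86 and Wdr95, each with under 50 counts in most mice. No paired analysis was possible because the labels do not say which WT and KO mice, if any, were littermates.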
